A study of Mus musculus with 33 samples.

Results

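Control endothelial cells of adult mouse liver had 7278 peaks of open chromatin that overlapped no peak, by even 1 base, in the lists of control endothelium at E9.5 and at E13.5. They were 18.7% of the 39019 peaks in the adult liver list. The values that chose them are presence or absence in these 3 lists, and members were chosen by them, so that absence is a description and not a result. Peaks came from ATAC-seq, in which a transposase cuts accessible DNA, and each group had 1 list in which the authors combined 2 libraries, so no peak has a replicate check. RNA-seq of the same groups and the list of adult livers with added Runx1 were not used in the choice. The 31741 remaining Liver Ctrl peaks, which overlapped an embryonic control peak, serve as the comparison and are called shared peaks. The 7278 are called adult-only peaks, in the sense of these lists alone.

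All cells were sorted as CD31+ and VE-cadherin+, CD41-, CD45- and Ter119-, with low to positive cKIT. Adult cells came from livers of mice aged 4 to 6 weeks. The embryonic cells were sorted from embryos at E9.5 and from fetuses at E13.5, with no organ named in their labels, so they may hold several vascular beds. Ctrl mice carried a conditional Runx1 knock-in allele, given as CKI/+ at E9.5 and as CKI/CKI; CKI/+ at the later stages, with no Cre named in their labels. Liver 2Runx1 and E13.5 2Runx1 were Cre; CKI/CKI, and the 1Runx1 groups at E9.5 and E13.5 were Cre; CKI/+. The labels do not name the promoter of Cre. Cre and the added Runx1 coincide in each of these groups and cannot be told apart. All groups received 2 mg tamoxifen, 24 hours before harvest in the embryonic stages and by oral gavage in the adults. The strain was C57BL/6J-129Sv/J, given at E9.5 as a cross with B6C3F1, and the E9.5 embryos came from superovulated females. Age, tissue and, at E9.5, strain therefore differ together between the stages. RNA-seq had 13 libraries of 37754246 to 44540403 recovered reads, with 2 libraries a group except E13.5 Ctrl, which had 1. Nothing states that replicates came from separate animals, so p-values measure only how far these libraries vary, and that variation may be technical.

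The endothelium of the liver lobule lines the sinusoids, which are capillaries with open pores and little basement membrane. Its cells take up waste from blood through scavenger and Fc receptors, degrade it in lysosomes, and send signals such as WNT2, HGF and BMP6 to hepatocytes. The factor GATA4 is known to specify them, and MAF is known to act in their maturation. Open chromatin marks promoters and enhancers that factors can reach, and distal enhancers usually differ more between cell types than promoters do.

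The labelled cell type was checked against 19 markers of liver sinusoidal endothelium. All 19 were called higher in Liver Ctrl RNA than in each embryonic Ctrl group (limma, adjusted p under 0.05), where 40.6% and 42.7% of all genes tested were, and their summed level was 18818 to 19025 RPKM in Liver Ctrl, 1049 in E13.5 Ctrl and 420 to 434 in E9.5 Ctrl. The lymphocyte list was near 0 in Liver Ctrl, with 11 of 12 genes under an RPKM of 1 in both libraries and a summed level of 3.76 to 4.66. The 12 markers of Kupffer cells and macrophages, the phagocytes that sit in the sinusoids, summed to 156 to 161 RPKM in Liver Ctrl, 16.0 in E13.5 Ctrl and 1.17 to 1.67 in E9.5 Ctrl. All 12 were called higher in Liver Ctrl than in each embryonic group. Of the 12, 5 had an RPKM of at least 1 in E13.5 Ctrl and 0 in both E9.5 Ctrl libraries. A gene that reached this level in liver libraries alone, such as Clec4f, could only be called higher, so the count is a description. The 14 hepatocyte genes summed to 169 to 181 RPKM in Liver Ctrl, 261 in E13.5 Ctrl and 19.2 to 20.04 in E9.5 Ctrl. How much RNA of such cells adds to a result was not tested. In bulk samples, fewer cells of a type and less RNA per cell cannot be told apart.

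Adult-only peaks touched the promoters of 49 genes, counted as RefSeq windows of 300 bases that run from 250 before to 50 after a gene start (51 windows). The sequences below show 6 of them, chosen because the peak was found again in the Liver 2Runx1 list and the gene had the largest rise in RNA from E13.5 Ctrl to Liver Ctrl among those called in both stage comparisons. Clec4g encodes a C-type lectin of sinusoidal endothelium, Ces2g a carboxylesterase, Casp1 the inflammasome protease and Il1a the cytokine interleukin-1 alpha. Phf11d is an interferon-inducible PHD finger gene, and Tmcc3 encodes a transmembrane protein with coiled-coil domains. Windows come from RefSeq on GRCm38.p6 and read 5′ to 3′ on the gene's strand. Capitals mark the core word of ETS factors, AGGAAG, and the AP-1 word TGANTCA, each searched on both strands, so an ETS word on the opposite strand appears as its reverse complement.
Clec4g (chr8:3720602-3720901, minus strand): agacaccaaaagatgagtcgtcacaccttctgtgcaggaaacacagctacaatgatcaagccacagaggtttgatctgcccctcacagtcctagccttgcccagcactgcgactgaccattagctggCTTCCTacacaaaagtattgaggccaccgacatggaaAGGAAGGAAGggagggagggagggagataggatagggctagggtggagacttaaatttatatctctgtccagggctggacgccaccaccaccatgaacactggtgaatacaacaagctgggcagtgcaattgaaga
Ces2g (chr8:104961468-104961767, plus strand): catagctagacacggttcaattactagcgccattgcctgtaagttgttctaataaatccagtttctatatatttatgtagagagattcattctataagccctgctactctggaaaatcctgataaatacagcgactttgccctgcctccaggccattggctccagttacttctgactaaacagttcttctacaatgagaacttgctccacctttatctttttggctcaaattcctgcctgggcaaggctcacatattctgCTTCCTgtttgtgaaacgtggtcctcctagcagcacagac
Casp1 (chr9:5298267-5298566, plus strand): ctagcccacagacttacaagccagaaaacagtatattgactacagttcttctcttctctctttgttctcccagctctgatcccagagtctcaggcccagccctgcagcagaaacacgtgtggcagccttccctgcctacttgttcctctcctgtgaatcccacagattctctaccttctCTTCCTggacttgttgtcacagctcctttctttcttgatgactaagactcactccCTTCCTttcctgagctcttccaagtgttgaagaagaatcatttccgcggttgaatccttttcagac
Il1a (chr2:129309923-129310222, minus strand): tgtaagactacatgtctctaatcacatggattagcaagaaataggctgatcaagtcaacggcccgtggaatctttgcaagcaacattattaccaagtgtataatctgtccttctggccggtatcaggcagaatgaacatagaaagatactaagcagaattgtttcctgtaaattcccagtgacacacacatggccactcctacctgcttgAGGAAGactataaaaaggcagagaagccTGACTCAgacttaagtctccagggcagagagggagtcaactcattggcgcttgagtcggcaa
Phf11d (chr14:59365441-59365740, minus strand): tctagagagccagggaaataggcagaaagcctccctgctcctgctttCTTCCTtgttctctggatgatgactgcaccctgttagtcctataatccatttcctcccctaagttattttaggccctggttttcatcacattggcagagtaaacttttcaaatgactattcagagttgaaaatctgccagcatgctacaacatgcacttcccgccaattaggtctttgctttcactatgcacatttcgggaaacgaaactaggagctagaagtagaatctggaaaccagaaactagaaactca
Tmcc3 (chr10:94550622-94550921, plus strand): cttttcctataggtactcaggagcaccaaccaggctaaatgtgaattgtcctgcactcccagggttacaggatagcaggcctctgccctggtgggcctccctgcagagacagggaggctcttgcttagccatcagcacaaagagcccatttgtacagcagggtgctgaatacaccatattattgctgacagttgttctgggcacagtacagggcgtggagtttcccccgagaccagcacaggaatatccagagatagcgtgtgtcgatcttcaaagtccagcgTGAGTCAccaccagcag

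Of these 6 windows, 5 held an ETS word and 2 held an AP-1 word. Clec4g had 3 ETS words, 2 of them in a run of overlapping repeats, and Casp1 had 2. None of the 6 held the GATA word GATAAG or the RUNX word TGTGGT, which says only that these letters are not in these windows. The Il1a and Casp1 windows lay wholly under their peaks, which had an authors' fold enrichment of 11.3 and 7.86. The Tmcc3 peak covered 137 bases of the window shown, and a nearly identical second window of that gene was touched by the same peak.

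Over all 51 windows touched by adult-only peaks, GC content and CpG number were low. The median was 48.0% GC with 4 CpG dinucleotides, against 62.7% and 23 in the 11017 windows touched only by shared peaks, and 52.7% and 7 in all 32851 windows. The KLF/SP word GGGCGG, common in CpG islands, was present in 5.88% of the 51 windows, in 69.8% of the windows with shared peaks and in 35.7% of all windows. AP-1 words were present in 19.6%, 3.94% and 7.81% of the same 3 sets, and the GATA word in 11.8%, 4.42% and 7.44%. The short MAF word TGCTGA was present in 33.3%, 13.8% and 19.5%, and ETS words in 49.02%, 31.9% and 35.4%. The RUNX word was present in 11.8%, 11.1% and 16.8%. A full MAF site can hold both the short MAF word and an AP-1 word, so these shares are not independent. These are 3 of 51 windows for KLF/SP, 10 for AP-1 and 6 for GATA, described without a test. A match is a string of letters and not a shown binding site.

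The 18 words searched also included SOX (ACAAAG), present in 31.4% of the 51 windows and 18.7% of all windows, MEF2 (CTATTT) in 21.6% and 12.1%, and RBPJ (TGGGAA) in 31.4% and 25.6%. HNF4 (CAAAGTC) was present in 9.80% and 4.44%, HNF1 (GTTAAT) in 3.92% and 7.10%, and FOX (TGTTTAC) in 3.92% and 3.65%. The PU.1 word GAGGAAG, which contains the ETS word, was present in 11.8% and 13.6%, and the CTCF word AGGGGGC in 3.92% and 10.6%. The short NFI word TTGGCA was in 17.6% and 14.1%, the TEAD word GGAATG in 11.8% and 14.7%, the E-box CANNTG in 80.4% and 72.3%, and its TFE/MITF form CACGTG in 5.88% and 7.15%. Words of liver parenchymal factors (HNF1, HNF4, FOX) were thus present in 2 to 5 of the 51 windows each.

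As peaks, the adult-only set was narrow and weak, which is stated as a description since the same adult list entered the choice. The median width was 143 bases (quartiles 112 and 197), against 288 (160 and 513) in shared peaks. The authors' fold enrichment had a median of 4.23 against 7.77, and their −log10 q a median of 2.96 against 10.8. The adult list started at a −log10 q of 1.30. Only 87 adult-only peaks reached 20, against 9426 shared peaks. The embryonic lists were longer than the adult list, with 99298 peaks at E9.5 and 96537 at E13.5, and the sequencing depth behind each list is unknown. A peak missing from a list was not called there, which is not the same as closed chromatin.

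Few members sat at the edge of the rule. An embryonic control peak lay within 50 bases of 83 members and within 500 bases of 690, whereas 4240 had none within 10 kb. The median gap was 18.7 kb. On the other side, 44 shared peaks overlapped an embryonic peak by at most 10 bases. The 3 members nearest to an embryonic peak had a fold enrichment of 4.17 to 6.43, and 3 shared peaks that overlapped by 1 base had 4.47 to 6.49.

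The Liver 2Runx1 list, from other adult livers, showed which members were called a second time. Of the 7278 adult-only peaks, 1788 (24.6%) overlapped a peak there, and of the shared peaks 25462 (80.2%). The share depended on peak score. Among adult-only peaks with −log10 q under 2 it was 3.32% of 1354, and from 2 to 3 it was 7.51% of 2305. From 5 to 10 it reached 59.7% of 1193, from 10 to 20 it was 88.6% of 387, and at 20 or more 96.6% of 87. Shared peaks stood higher in each range, at 28.2% and 36.9% in the lowest 2 ranges and 94.4% and 99.8% in the highest 2. The rule chose shared peaks for overlap with another list and adult-only peaks for absence from 2 lists, so nothing is read from this contrast. Scores and widths were not matched within a range. All 6 pairs of Wilson 95% intervals were apart, and these intervals cover counting error only. Most adult-only peaks were thus weak and called in 1 adult list only, while the strong ones were nearly all called in both. The 1788 are called recurrent below. They differ from the rest in score, with a median −log10 q of 6.30 against 2.73 and a median width of 236 against 131 bases. Because Liver 2Runx1 also differs in genotype, a peak absent there is not shown to be noise or to respond to Runx1.

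**Figure D1:**
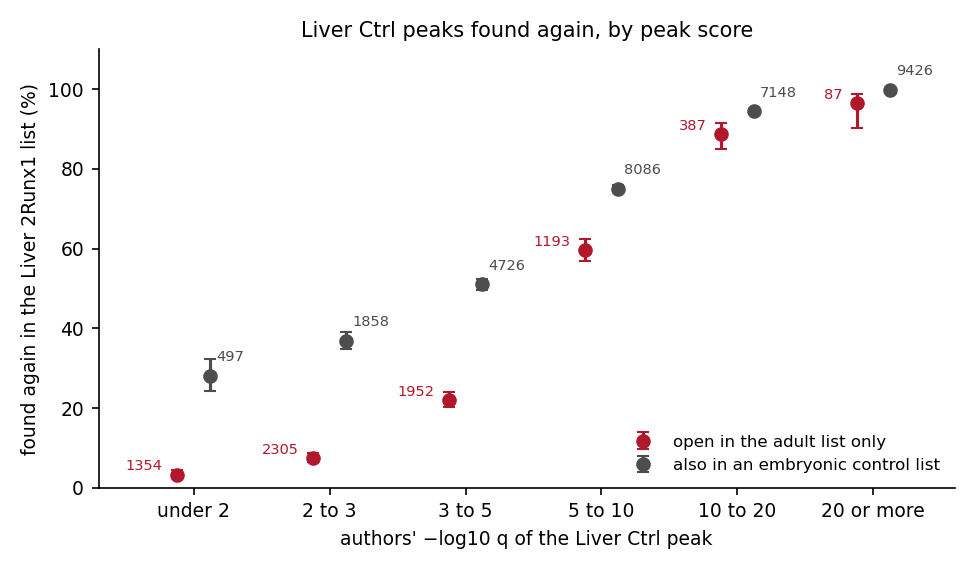
Percent of Liver Ctrl peaks that overlapped a Liver 2Runx1 peak (y axis) by range of the authors' −log10 q (x axis), for adult-only peaks (red) and shared peaks (grey), with the number of peaks beside each point and Wilson 95% intervals. Adult-only peaks rise from 3.32% in the lowest range to 96.6% in the highest, and lie below shared peaks in every range. Nothing is read from that difference, since the rule chose both sets by overlap with other lists.

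Embryonic cells with added Runx1 had peaks at some of the same places. The E9.5 1Runx1 list touched 192 adult-only peaks (2.64%), the E13.5 1Runx1 list 315 (4.33%) and the E13.5 2Runx1 list 176 (2.42%). Of all Liver Ctrl peaks the same lists touched 75.5%, 79.0% and 76.1%. Members were chosen for absence from the embryonic control lists, so nothing is read from this contrast. In all, 524 members (7.20%) were touched by any of the 3 lists and 31 by all 3. Recurrent members were touched more often than the others by each list, at 5.54% against 1.69% for E9.5 1Runx1, 10.0% against 2.48% for E13.5 1Runx1 and 5.37% against 1.46% for E13.5 2Runx1. They were also wider and of higher score, as given above, and the part of width and score in these shares was not tested. From the side of the embryonic lists, 10061 E13.5 1Runx1 peaks overlapped no embryonic control peak, and 270 of them (2.68%) lay at an adult-only peak, as did 161 of 10903 (1.48%) for E9.5 1Runx1 and 134 of 4851 (2.76%) for E13.5 2Runx1. The 31 included peaks in Calcrl, which encodes the receptor for calcitonin gene-related peptide, in Prkce, a protein kinase C gene, and near the start of Nlrp3, an inflammasome sensor. Genotype and peak calling in each list differ together here, with no replicate check.

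H3K4me1, a histone mark of enhancers and promoter flanks, was measured at E13.5 only. Its Ctrl regions overlapped 419 adult-only peaks (5.76%) and 8223 shared peaks (25.9%). Its 2Runx1 regions overlapped 1014 (13.9%) and 17127 (54.0%). The 2Runx1 list was longer, with 88344 regions against 48795, and in the labels the descriptions of the 2Runx1 input and of 1 ChIP library appear exchanged, so its values remain in doubt. Members were chosen for absence from the embryonic control ATAC lists, and shared peaks for overlap with them. Nothing is therefore read from the lower shares of adult-only peaks in these E13.5 regions. Adult-only peaks were also narrower, and the part of width in these shares was not tested.

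By position, adult-only peaks were mostly far from gene starts. Over the chromosomes with RefSeq start windows, 168 of 7056 members (2.38%) lay within 1 kb of a start, against 10342 of 30682 shared peaks (33.7%). Recurrent members had 3.53% and the others 2.01%. The median distance was 34.1 kb for recurrent members, 113 kb for the others and 9.18 kb for shared peaks. More than 300 kb separated 30.2% of the non-recurrent members from any start, against 7.75% of recurrent ones and 3.14% of shared peaks. Recurrent members, shared peaks and non-recurrent members had 24.1%, 20.5% and 14.7% at 10 to 30 kb, 30.0%, 18.5% and 20.5% at 30 to 100 kb, and 15.7%, 6.53% and 22.0% at 100 to 300 kb. Of all members, 38.4% had their centre inside an annotated gene, against 54.0% of recurrent members, 62.6% of shared peaks and 58.1% of all Liver Ctrl peaks. Exons and introns were not told apart, since no exon annotation was used here.

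**Figure D2:**
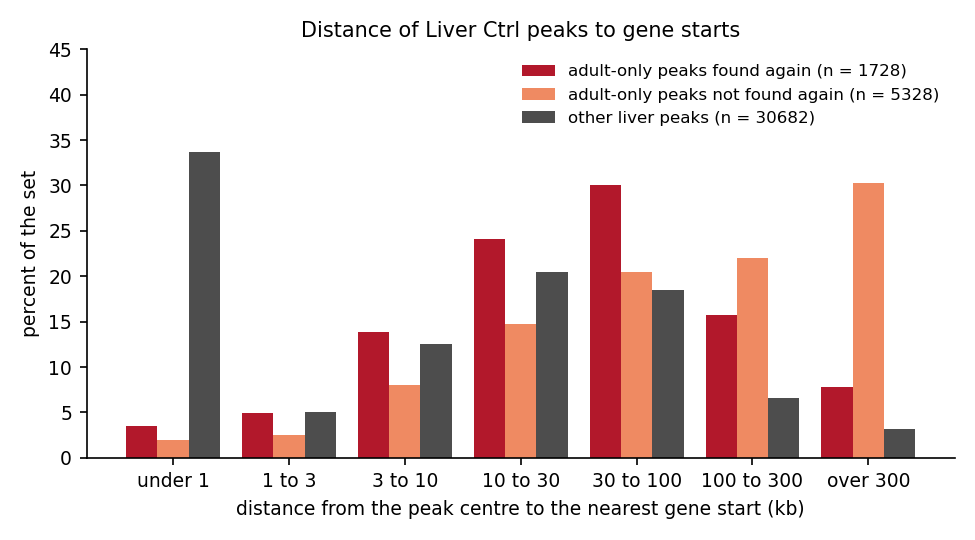
Share of peaks (y axis, percent of each set) by distance from the peak centre to the nearest RefSeq gene start (x axis, kb) for recurrent adult-only peaks (red), other adult-only peaks (orange) and shared peaks (grey). Of shared peaks 33.7% lie within 1 kb of a start, against 3.53% of recurrent and 2.01% of other adult-only peaks, and 30.2% of the latter lie over 300 kb away.

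The members were unevenly spread over chromosomes. On chromosome 14 they made up 31.7% of all Liver Ctrl peaks, on chromosome 1 26.5% and on chromosome 16 26.1%, but on chromosome 11 8.36% and on chromosome 19 9.19%. Recurrent members followed the shared peaks more closely, with 4.42% of them on chromosome 14 against 3.72% of shared peaks and 7.52% of all members. The longest run of neighbours, 7 members over 15.8 kb at Klra17, a killer lectin-like receptor gene, had no recurrent member.

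Each member was linked to every gene that contains its centre, or otherwise to the nearest gene within 100 kb. This linked 4555 of the 7278 members (62.6%) to 2931 genes. Of these genes 1773 were expressed enough to test, which is 60.5%, against 49.9% of all genes with coordinates. Among genes linked to recurrent members 70.5% were testable and 65.0% had an RPKM of at least 1 in both Liver Ctrl libraries. Among genes linked only to non-recurrent members these shares were 52.9% and 47.3%, and among genes linked only to shared peaks 74.9% and 67.01%.

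RNA of the linked genes stood higher in adult liver endothelium than in the embryo. Most of these genes were also linked to a shared peak. Of the 1773 genes, 1006 (56.7%) were called higher in Liver Ctrl than in E13.5 Ctrl and 476 (26.8%) lower, with a median log2 difference of 0.46. Over all 12546 genes tested, 79.3% were called, 40.6% higher and 38.6% lower, with a median of 0.02. Against E9.5 Ctrl, 1048 (59.1%) were called higher and 524 (29.6%) lower, with a median of 0.53, where 85.4% of all genes were called, 42.7% higher and 42.7% lower, with a median of -0.01. Called means a limma adjusted p under 0.05, and differences are on the scale log2(RPKM + 1), which understates low genes. Genes that reached an RPKM of 1 in liver libraries alone could only be called higher, among linked genes and among all genes tested. Linked to members and to no shared peak were 88 of the genes tested. Of these, 43.2% were called higher than E13.5 Ctrl and 42.0% lower, with a median of 0.10, which is near the values of all genes tested. Against E9.5 Ctrl the same genes had 54.5% higher and 35.2% lower, with a median of 0.48. Both comparisons share the Liver Ctrl libraries, so their values are set side by side only.

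Besides the read total, the deposited RPKM carried a further scaling of each library, and this sets the balance of higher and lower calls. With the read total alone, the medians over all genes shifted to -0.34 against E13.5 Ctrl and -0.27 against E9.5 Ctrl, and calls over all genes changed from 5097 higher and 4847 lower to 3433 and 6632 at E13.5, and from 5351 and 5359 to 4312 and 6439 at E9.5. The linked genes then had medians of 0.07 and 0.22, which exceeded the medians of all genes by 0.42 and 0.48, against 0.44 and 0.54 as deposited. With no filter on low values, which adds the many genes near 0, the linked genes exceeded all genes by a median of only 0.05 at both stages. Scaled by the read total alone, 43.5% of linked and 27.4% of all genes were called higher than E13.5 Ctrl. Against E9.5 Ctrl these shares were 50.6% and 34.4%.

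Higher RNA went with more members at a gene, recurrent or not. Against E13.5 Ctrl, genes with 1, 2, 3 and 4 or more members of any kind had median log2 differences of 0.31, 0.61, 1.14 and 1.24. The steps by recurrent members follow. Over them the median length of genes tested rose from 61.3 kb with 1 recurrent member to 154 kb with 3 or more. Against E13.5 Ctrl, the median log2 difference was 0.35 for the 882 genes with non-recurrent members only, 0.46 for 719 genes with 1 recurrent member, 0.95 for 127 genes with 2 and 1.58 for 45 genes with 3 or more. The share called higher was 53.7%, 55.9%, 72.4% and 84.4% over the same steps. Of the 45 genes, 38 were higher and 2 lower: Ext1, which encodes a heparan sulfate polymerase, and Nudcd1. Of all 54 genes with 3 or more recurrent members, 45 had an RPKM of at least 1 in both Liver Ctrl libraries. In the E13.5 Ctrl library 35 did, and in both E9.5 Ctrl libraries 31. Genes that reached this level in liver alone could only be called higher, so these shares are descriptions. Genes linked to shared peaks and no member had a median of -0.02 with 39.3% called higher, and genes linked to no Liver Ctrl peak -0.19 with 32.2%.

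Longer genes collect more peaks, so the shares were read within 4 equal classes of gene length. In the longest class, over 51.8 kb, 60.6% of 531 genes with a recurrent member were called higher than E13.5 Ctrl, against 51.5% of 493 with non-recurrent members only and 35.7% of 2110 with none. In the shortest class, up to 8.92 kb, the shares were 63.3% of 60, 64.7% of 68 and 38.7% of 3006. In the other classes, 52.8% and 60.5% of genes with a recurrent member, 60.5% and 51.3% of those with non-recurrent members only, and 39.5% and 37.3% of those with none were called higher. Genes linked to a member thus had the larger share in all 4 classes, while recurrent members had the larger share only in the 2 longer ones. The number of members per gene was not read within these classes.

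**Figure D3:**
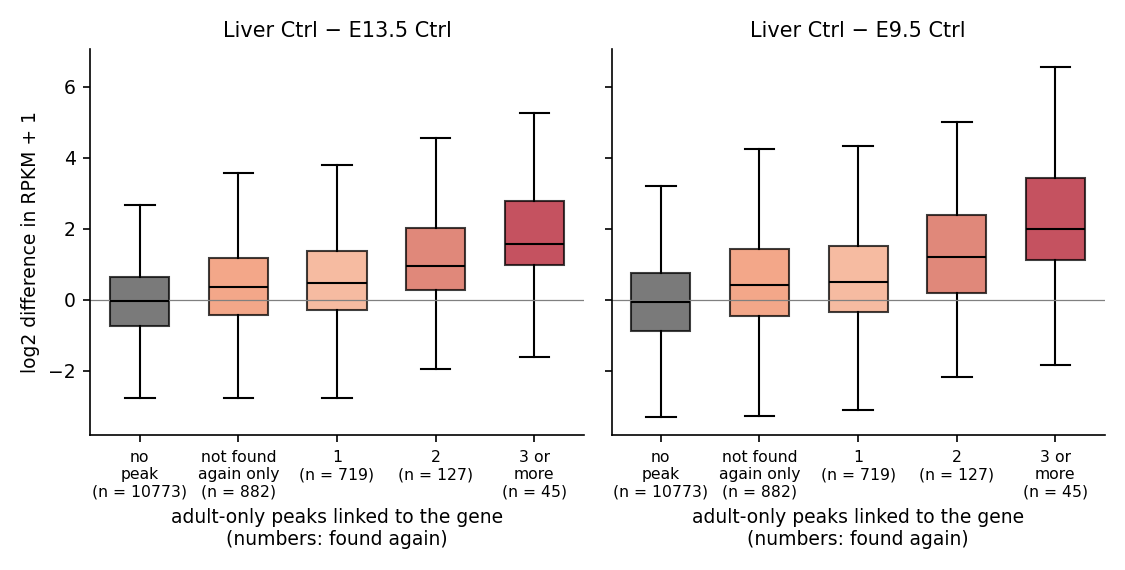
Log2 difference in RPKM + 1 (y axis) between Liver Ctrl and E13.5 Ctrl (left) or E9.5 Ctrl (right) for genes tested, by adult-only peaks linked to them (x axis). Boxes span the quartiles, lines are medians, whiskers reach 1.5 times the box and points beyond are not drawn. Against E13.5 Ctrl the medians step from 0.35 with non-recurrent peaks only to 1.58 with 3 or more recurrent peaks.

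Among the 19 sinusoidal markers, 12 were linked to 26 members, of which 16 were recurrent. Over all 25135 genes with coordinates, 11.7% were linked to a member and 5.03% to a recurrent one, which is the background for this and the following lists. Linked genes were longer, with a median of 54.1 kb against 14.8 kb for all genes. List medians were 70.2 kb for the transcription factors, 29.6 kb for the sinusoidal markers, 5.79 kb for MHC genes and 5.75 kb for cholangiocyte genes. The part of gene length in the counts per list was not tested. Fcgr2b, the inhibitory Fc receptor that clears immune complexes in the sinusoid, had 5 members, 3 of them recurrent (chr1:170960558-170976071, GRCm38). Its RNA was 2167 and 2214 RPKM in Liver Ctrl, 1.32 in the E13.5 Ctrl library and 0.490 and 0.398 in E9.5 Ctrl. The libraries do not overlap between stages, and the log2 differences were 9.88 ± 0.19 from E13.5 Ctrl (adjusted p = 2.58e-11) and 10.57 ± 0.16 from E9.5 Ctrl (adjusted p = 1.21e-12). The 5 peaks ran over 16.9 kb, with fold enrichments of 3.72 to 7.09, and the nearest embryonic control peak to each was 4.20 to 10.7 kb away. Within 20 kb of the gene, Liver Ctrl had 1 shared peak and E13.5 Ctrl 2 peaks.

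Clec4g had 1 recurrent member, 238 bases wide, at its promoter shown above. Its RNA was 6007 and 6063 RPKM in Liver Ctrl, 6.28 in the E13.5 Ctrl library and 3.29 and 3.10 in E9.5 Ctrl. Liver Ctrl was far above all embryonic libraries, which reached 23.7 RPKM in E13.5 1Runx1, with differences of 9.70 ± 0.47 from E13.5 Ctrl (adjusted p = 1.14e-08) and 10.49 ± 0.38 from E9.5 Ctrl (adjusted p = 5.07e-10). A shared peak inside the gene, 11.5 kb from its lower edge, was stronger in the E13.5 Ctrl list (fold 22.0) than the promoter peak was in the adult list (fold 5.37), although folds of separate lists are not on 1 scale. The embryonic lists thus had peaks within Clec4g, but none at its start, the nearest being 1.61 kb from the member.

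Mrc1, the mannose receptor, had 4 members, 3 of them recurrent: 1 inside the gene and 2 about 10 kb beyond its end. Its RNA was 679 and 674 RPKM in Liver Ctrl, 33.2 in the E13.5 Ctrl library and 1.55 and 1.73 in E9.5 Ctrl. The 3 stages were apart, with differences of 4.31 ± 0.30 from E13.5 Ctrl (adjusted p = 1.88e-07) and 8.01 ± 0.24 from E9.5 Ctrl (adjusted p = 1.18e-10). Stab2, a hyaluronan scavenger receptor, had 3 members inside the gene, 1 recurrent, beside 9 shared peaks, and its RNA was 828 and 705 RPKM in Liver Ctrl, 60.3 in the E13.5 Ctrl library and 3.11 and 3.28 in E9.5 Ctrl. Ehd3, which acts in endocytic traffic, had 3 members, 2 recurrent, and its RNA was 2707 and 2599 RPKM in Liver Ctrl, 147 in the E13.5 Ctrl library and 7.23 and 7.13 in E9.5 Ctrl.

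Adam23, a cell adhesion gene, had 2 recurrent members and a single shared peak. Its RNA was 159 and 157 RPKM in Liver Ctrl, 0.509 in the E13.5 Ctrl library and 0.203 and 0.149 in E9.5 Ctrl, a difference of 6.72 ± 0.12 from E13.5 Ctrl (adjusted p = 1.6e-11) and 7.08 ± 0.09 from E9.5 Ctrl (adjusted p = 6.8e-13). Gata4 had 1 recurrent member at the edge of the gene beside 6 shared peaks, and its RNA was 223 and 220.1 RPKM in Liver Ctrl, 32.3 in the E13.5 Ctrl library and 27.3 and 26.0 in E9.5 Ctrl. Maf had 1 recurrent member 13.9 kb away, and its RNA was 119 and 124 RPKM in Liver Ctrl, 9.76 in the E13.5 Ctrl library and 1.101 and 1.05 in E9.5 Ctrl. Plxnc1, Ctsl, Tfec and Gpr182 carried 1 or 2 members each. The markers Stab1, Lyve1, Clec1b, Oit3, Dnase1l3, Flt4 and F8 carried none, although their RNA was also called higher in Liver Ctrl, and each had 1 to 4 shared peaks.

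**Figure D4:**
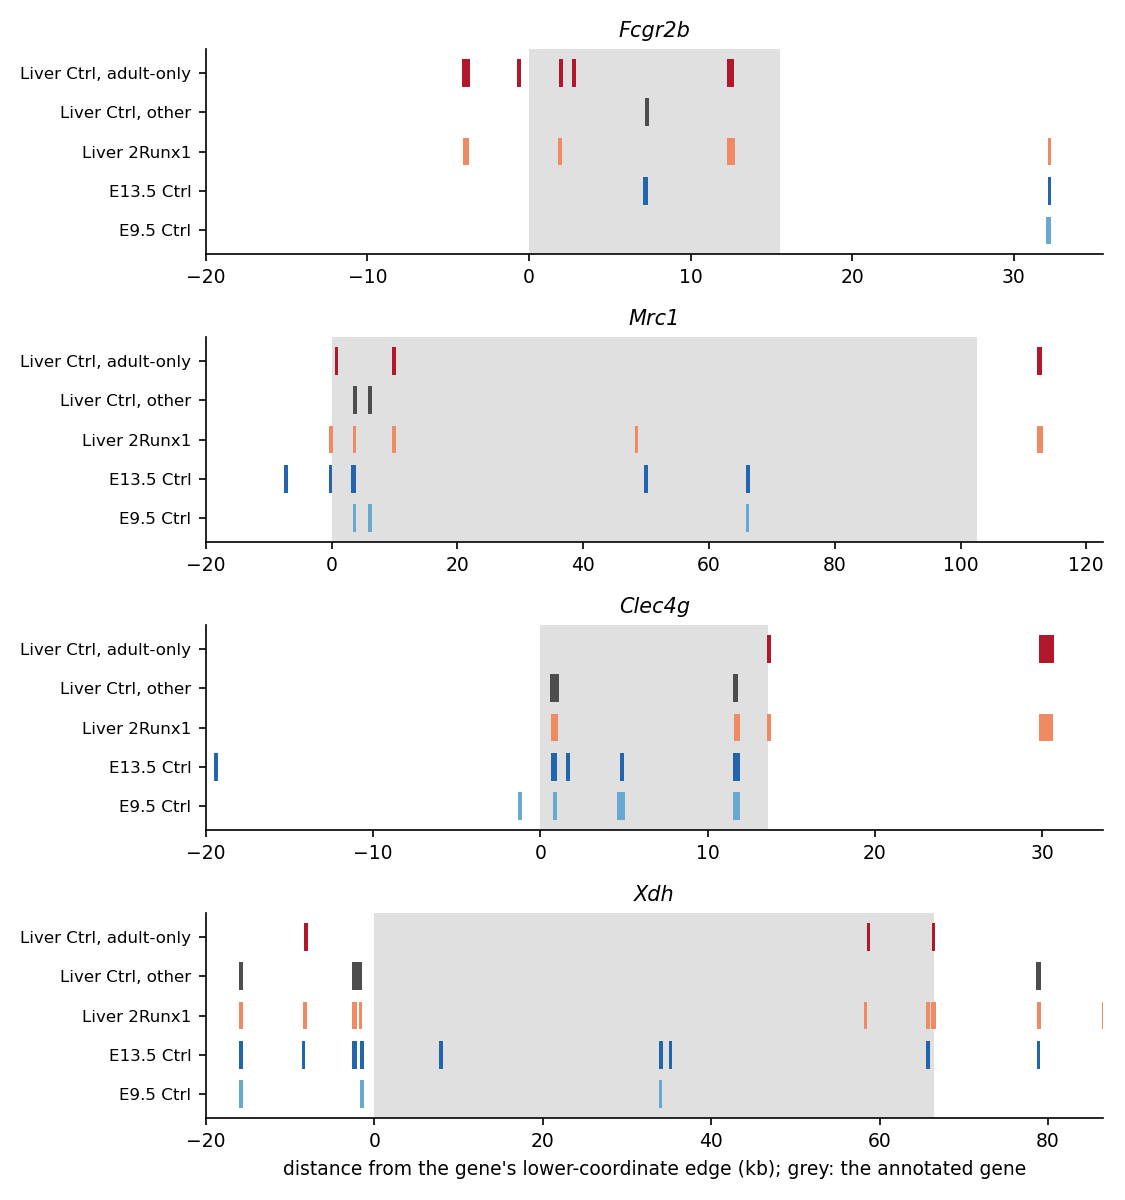
Peaks of 5 lists within 20 kb of Fcgr2b, Mrc1, Clec4g and Xdh, drawn to scale along the distance from the gene's lower-coordinate edge (x axis, kb), with the annotated gene in grey and very short peaks widened to stay visible. At Fcgr2b the 5 adult-only peaks face 2 E13.5 Ctrl peaks and 1 E9.5 Ctrl peak, and the adult-only peak at the Clec4g start has a Liver 2Runx1 peak and no embryonic control peak at its place.

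Of 9 angiocrine genes, 4 were linked to 8 members, 4 of them recurrent. Wnt2, the WNT ligand of the central sinusoid, had 1 recurrent member inside the gene, and its RNA was 353 and 347 RPKM in Liver Ctrl, 0.868 in the E13.5 Ctrl library and 0.509 and 0.388 in E9.5 Ctrl. The difference was 7.55 ± 0.12 from E13.5 Ctrl (adjusted p = 9.04e-12) and 7.92 ± 0.10 from E9.5 Ctrl (adjusted p = 4.88e-13), with no overlap between stages. Hgf, the hepatocyte growth factor gene, had 3 members, and the recurrent one lay 1.14 kb inside the lower edge of the gene and was also called in E13.5 1Runx1. Its RNA was 34.3 and 33.3 RPKM in Liver Ctrl, 0.949 in the E13.5 Ctrl library and 0.442 and 0.181 in E9.5 Ctrl. Bmp6, the BMP ligand by which the sinusoid controls iron uptake, had 3 members inside the gene, of which 2 were recurrent and 1 of these lay 51 bases from an embryonic control peak, and its RNA was 109 and 104 RPKM in Liver Ctrl, 4.12 in the E13.5 Ctrl library and 3.58 and 3.68 in E9.5 Ctrl. Cxcl12, a chemokine gene, had 1 non-recurrent member, and its RNA was 4.34 and 4.71 RPKM in Liver Ctrl, 2.60 in the E13.5 Ctrl library and 0.874 and 1.06 in E9.5 Ctrl. All 4 were called higher in Liver Ctrl than in both embryonic groups, as were 4 of the other 5 angiocrine genes. The remaining angiocrine gene was called lower in both. Over all genes tested, 40.6% were called higher than E13.5 Ctrl and 42.7% higher than E9.5 Ctrl. Hgf stayed under 1 RPKM in every embryonic library and could only be called higher, so its calls are descriptions.

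Of 6 transcription factors of the sinusoid, 5 carried 9 members, 5 recurrent. Besides Gata4, Maf and Tfec these were Zeb2, a zinc finger repressor gene with 4 members of which 2 were recurrent, and Meis1, a homeobox gene with 1 recurrent member. Zeb2 RNA was 12.02 and 11.3 RPKM in Liver Ctrl, 4.36 in the E13.5 Ctrl library and 4.58 and 4.48 in E9.5 Ctrl, a difference of 1.24 ± 0.11 from E13.5 Ctrl (adjusted p = 1.8e-06) and 1.19 ± 0.09 from E9.5 Ctrl (adjusted p = 2.78e-07). Meis1 RNA was 21.6 and 20.6 RPKM in Liver Ctrl, 5.87 in the E13.5 Ctrl library and 8.004 and 9.19 in E9.5 Ctrl. Of 8 genes for endothelial lipid handling, 6 carried 9 members, 3 recurrent. Cd36, the fatty acid transporter gene, had 3 members, 2 recurrent, and its RNA was 388 and 425 RPKM in Liver Ctrl, 60.8 in the E13.5 Ctrl library and 2.09 and 1.76 in E9.5 Ctrl. Fabp5, a fatty acid binding protein gene with 1 recurrent member, went the other way from E13.5: its RNA was 149 and 157 RPKM in Liver Ctrl, 336 in the E13.5 Ctrl library and 137 and 134 in E9.5 Ctrl, with log2 differences of -1.13 ± 0.07 (adjusted p = 1.27e-07) and 0.18 ± 0.06 (adjusted p = 0.0187), and the sign of the second turned to -0.16 with values scaled by the read total alone.

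Lysosomal genes were called higher in 13 of 15 against E13.5 Ctrl and 14 of 15 against E9.5 Ctrl, where 40.6% and 42.7% of all genes tested were. Of the 15, 3 carried a member, where 11.7% of all genes did: Lamp2, Ctsb and Ctsl, with 1 each. None of 12 genes of MHC and antigen presentation carried a member, where 11.7% of all genes did. All 11 tested were called higher in Liver Ctrl than in both embryonic groups, beside the same 40.6% and 42.7%, with a median difference of 4.37 from E13.5 Ctrl. Of the 12, 5 had an RPKM of at least 1 in E13.5 Ctrl and 4 in both E9.5 Ctrl libraries. Any gene that reached this level in liver libraries alone could only be called higher, so the count is a description. Of 12 pan-endothelial genes, 5 carried 8 members, 2 recurrent, at Kdr, Tek, Erg, Emcn and Cldn5, which also had 5 to 14 shared peaks each. Emcn, which encodes endomucin, was lower in Liver Ctrl, with log2 differences of -0.63 ± 0.14 from E13.5 Ctrl and -0.37 ± 0.11 from E9.5 Ctrl (limma, adjusted p = 0.00169 and adjusted p = 0.0113).

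Markers of other liver cells were read against the same 11.7% of all genes. Of 12 Kupffer cell and macrophage genes, 1 carried a member: Clec4f, whose single non-recurrent member lay 27.8 kb away, and whose RNA was 18.0 and 18.3 RPKM in Liver Ctrl, 0.0340 in the E13.5 Ctrl library and 0.0204 and 0 in E9.5 Ctrl. Of 14 hepatocyte genes, only Alb did, with 1 non-recurrent member 18.1 kb away, and its RNA was 42.1 and 45.6 RPKM in Liver Ctrl, 28.1 in the E13.5 Ctrl library and 0.0356 and 0.0331 in E9.5 Ctrl. No lymphocyte, stellate and mesenchymal, cholangiocyte or erythroid gene of the 36 on those lists carried a member. No recurrent member was linked to any of the 62 genes on these 6 lists.

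Every gene with a member in its 300 base window was accounted for. Of the 49, 15 had no RNA value, 13 stayed under 1 RPKM in all 13 libraries, and 21 were tested. Of these 21, 9 were under 1 RPKM in every embryonic library and passed the filter through the liver alone, so they could only be called higher. The other 12 reached 1 RPKM in an embryonic library too, and 10 of them were called higher in Liver Ctrl than in E13.5 Ctrl and none lower, with the same counts against E9.5 Ctrl. Within 1 kb of a start, 107 genes had RNA values and 67 were tested, of which 50 (74.6%) were higher and 7 (10.4%) lower than E13.5 Ctrl. Of 8233 genes tested with a shared peak and no member within 1 kb of the start, 41.6% were higher and 37.3% lower. Over all genes tested, 40.6% were higher and 38.6% lower than E13.5 Ctrl, and 42.7% higher and 42.7% lower than E9.5 Ctrl. The filter acts on the counts within 1 kb in the same way, so they are descriptions.

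Il1a had a recurrent member of fold 11.3 over its start, 11.9 kb from any embryonic control peak and also called in E13.5 1Runx1. Its RNA was 457 and 515 RPKM in Liver Ctrl, 11.9 in the E13.5 Ctrl library and 0.186 and 0.162 in E9.5 Ctrl, a difference of 5.23 ± 0.36 from E13.5 Ctrl (adjusted p = 1.69e-07) and 8.69 ± 0.29 from E9.5 Ctrl (adjusted p = 2.51e-10). Casp1 had a member 951 bases wide over its start, also called in E13.5 1Runx1, and its RNA was 53.7 and 57.9 RPKM in Liver Ctrl, 0.256 in the E13.5 Ctrl library and 0 and 0.0452 in E9.5 Ctrl. Ces2g RNA was 71.1 and 73.6 RPKM in Liver Ctrl, 0.607 in the E13.5 Ctrl library and 0.0684 and 0.0239 in E9.5 Ctrl. For Casp1 and Ces2g, Liver Ctrl stood above all 9 embryonic libraries, which stayed under an RPKM of 1. Il1a and Casp1 are also expressed in macrophages, and the 12 Kupffer cell and macrophage genes had a higher summed level in Liver Ctrl, as given above. The part of such cells in these values was not tested.

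Other genes with a member within 1 kb of the start included Hdc, the histidine decarboxylase that makes histamine, at 43.5 and 44.9 RPKM in Liver Ctrl, 1.21 in the E13.5 Ctrl library and 0.204 and 0.190 in E9.5 Ctrl. Phf11d stood at 22.7 and 23.4 RPKM in Liver Ctrl and at most 0.330 in the embryonic libraries. Gbp2, an interferon-induced GTPase gene, stood at 32.3 and 33.2 and at most 1.199, though the member at its start was not recurrent. Tmcc3 had 3 members, all recurrent, and differed by 4.23 ± 0.10 from E13.5 Ctrl. In the other direction, the members at Rrp15, a ribosome biogenesis gene, Rpl27, a ribosomal protein gene, Morf4l2 and D16Ertd472e were not recurrent, and their RNA was lower in Liver Ctrl, with log2 differences from E13.5 Ctrl of -1.63, -1.38, -1.45 and -1.22. Prdm1, which encodes the repressor BLIMP1, had a recurrent member and differed by -1.02 ± 0.15 (limma, adjusted p = 9.95e-05).

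**Figure D5:**
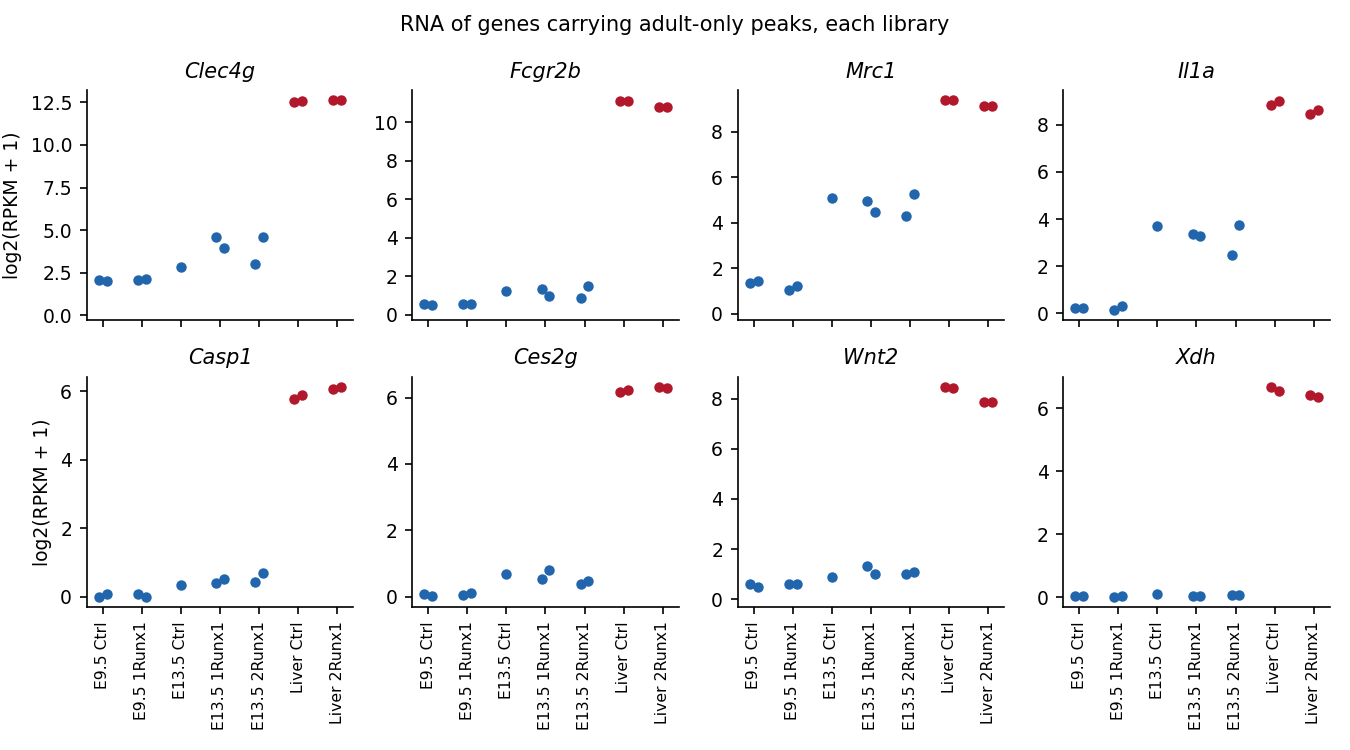
RNA of 8 genes that carry adult-only peaks, as log2(RPKM + 1) in each of 13 libraries (y axis) by group (x axis), with liver groups in red and embryonic groups in blue. All 4 liver libraries lie above all 9 embryonic libraries for each of the 8 genes, and Xdh is near 0 in every embryonic library.

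The strongest members were mostly distal. Of the 10 with the highest score, 8 were recurrent, and 3 had no gene within 100 kb. The highest of all, 94 bases wide in Shoc1 with a fold of 47.2, and the next, 90 bases wide on chromosome X with a fold of 32.6, were not recurrent, in contrast to the 28 that followed. Hpgd, which inactivates prostaglandins, had 2 recurrent members at 14.6 and 18.7 kb from the gene, the nearer one with a fold of 13.6, and 39.9 and 44.3 kb from any embryonic control peak. Its RNA was 568 and 559.6 RPKM in Liver Ctrl, 50.0 in the E13.5 Ctrl library and 4.82 and 5.59 in E9.5 Ctrl. Plppr5, a gene of the lipid phosphatase-related family, had a recurrent member at 66.5 kb with a fold of 20.1, and its RNA was 8.57 and 8.15 RPKM in Liver Ctrl, 0.0333 in the E13.5 Ctrl library and 0.0968 and 0.00530 in E9.5 Ctrl. The other linked genes of the 10 strongest, Cox7b2, Gria4, Pnpla5, Col4a3 and Shoc1, were too low to test, and the highest of their values was 1.02 RPKM, for Col4a3 in 1 Liver 2Runx1 library.

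Xdh, the xanthine oxidoreductase gene that makes uric acid, had 3 members, all recurrent, of which 2 lay 95 and 348 bases from an embryonic control peak. Its RNA was 99.9 and 92.6 RPKM in Liver Ctrl, 0.0663 in the E13.5 Ctrl library and 0.0371 and 0.0197 in E9.5 Ctrl. Nearly silent in 9 embryonic libraries and above 80 RPKM in all 4 liver libraries, it differed by 6.51 ± 0.09 from E13.5 Ctrl (adjusted p = 5.05e-12) and 6.56 ± 0.07 from E9.5 Ctrl (adjusted p = 3.3e-13). Xdh passed the RPKM filter through liver libraries alone and could only be called higher, so these calls are descriptions. Aass, the first enzyme of lysine breakdown, had 4 members inside the gene, 3 recurrent, 14.2 to 17.9 kb from an embryonic control peak, and its RNA was 101 and 108 RPKM in Liver Ctrl, 1.76 in the E13.5 Ctrl library and 0.145 and 0.308 in E9.5 Ctrl. It was named, like the other genes with 3 or more recurrent members, after those counts were seen.

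Tnfaip3, which encodes the NF-κB inhibitor A20, had the most recurrent members of any gene, 5 of 6. Its RNA was 30.2 and 28.0 RPKM in Liver Ctrl, 3.92 in the E13.5 Ctrl library and 1.64 and 1.59 in E9.5 Ctrl, a difference of 2.61 ± 0.19 from E13.5 Ctrl (adjusted p = 2.9e-07) and 3.52 ± 0.16 from E9.5 Ctrl (adjusted p = 2.33e-09). A cluster of 4 members, 3 of them recurrent, lay outside Tnfaip3 (chr10:19000910-19015410), at chr10:19077853-19088695. The members of this cluster were linked to Tnfaip3 and Gm20139 between them. Vcam1, an adhesion molecule gene induced by NF-κB, had 3 recurrent of 4, and its RNA was 54.7 and 53.0 RPKM in Liver Ctrl, 11.9 in the E13.5 Ctrl library and 0.259 and 0.261 in E9.5 Ctrl. Itga1, the integrin alpha 1 gene, had 4 recurrent of 6 and differed by 2.60 ± 0.11 from E13.5 Ctrl. Tspan7, a tetraspanin gene, had 3 of 5 and differed by 4.13 ± 0.42, and Man2a1, a Golgi mannosidase gene, had 3 of 7 and differed by 2.89 ± 0.10. Several genes with as many recurrent members were not expressed: Dnm3, Itgb8, Adarb2 and Trpm3 stayed under an RPKM of 1 in every library.

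By number alone, most of the genes with the most members were too low in RNA to test. Fgf14 and Lrp1b had 18 each, Ptprd 16, and Lrrc4c and Robo2 14 each, with 3 recurrent among those 80. Of the 20 genes with the most members, from 8 to 18 each, 18 were too low to test. The exceptions were Ptprd, a receptor phosphatase gene, and Diaph3, a formin gene of cell division with 2 recurrent of 11 members. Both were lower in Liver Ctrl, with log2 differences of -1.30 ± 0.14 and -1.94 ± 0.11 from E13.5 Ctrl (limma, adjusted p = 5.82e-06 and adjusted p = 2.85e-08). Lrp1b spans 2058 kb and Ptprd 2271 kb, so a high count is not a high density.

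Added Runx1 in the adult liver went with called changes in 26.1% of linked genes, where 25.3% of all genes tested were called. Runx1 itself carried no member and stood at 1.19 and 1.53 RPKM in Liver Ctrl and 78.1 and 78.4 in Liver 2Runx1, a difference of 5.07 ± 0.10 (adjusted p = 7.88e-10). Of the 1773 linked genes, 243 (13.7%) were called higher in Liver 2Runx1 and 219 (12.4%) lower, with a median of -0.01. Over all 12546 genes tested, 17.1% were called higher and 8.14% lower, with a median of 0.02. Over all genes, quantile normalization moved this split from 2149 higher and 1021 lower to 1643 and 1374, and for linked genes to 11.1% and 16.1%. Of the 45 genes with 3 or more recurrent members, 4 were higher and 11 lower. Leaving out any 1 of the 4 liver libraries lowered the calls over all genes to 1436 to 1613 higher and 505 to 572 lower, and the share of linked genes called lower to 5.25% to 7.73%.

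Angiocrine genes were lower with Runx1 in 5 of 9 and higher in 2. Wnt2 stood at 353 and 347 RPKM in Liver Ctrl and 234 and 231 in Liver 2Runx1, a difference of -0.59 ± 0.10 (adjusted p = 0.00138), and its member was called in both lists. Hgf differed by -0.38 ± 0.10 (adjusted p = 0.021) and Cxcl12 by -0.77 ± 0.20 (adjusted p = 0.0188), while Bmp6, at -0.59 ± 0.29, was not called (adjusted p = 0.166). Of the 19 sinusoidal markers, none was higher and 3 were lower, among them Adam23 (-0.45 ± 0.09) and Ctsl (-0.57 ± 0.05). Clec4g (0.09 ± 0.38), Fcgr2b (-0.32 ± 0.16) and Mrc1 (-0.24 ± 0.24) were not called, with adjusted p of 0.914, 0.178 and 0.532.

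The largest decreases among linked genes were in Mctp1, a calcium-binding membrane protein gene, from 5.09 and 5.39 to 1.05 and 1.09 RPKM (-1.59 ± 0.09), then Med18, a Mediator subunit gene (-1.39 ± 0.14), the unnamed locus Gm19461 (-1.18 ± 0.08), Slc40a1 and Slamf1 (-1.005 ± 0.11). Slc40a1, the iron exporter ferroportin, went from 248 and 235 to 110.4 and 112 RPKM (-1.11 ± 0.16, adjusted p = 0.000518), and neither of its 2 members was called in Liver 2Runx1. The largest increases were in AI467606 (2.14 ± 0.13), Unc5a, a netrin receptor gene (1.93 ± 0.26), and Cdca7, Hmmr and Racgap1, 3 genes of dividing cells. Cdca7 went from 1.69 and 1.92 to 9.27 and 8.68 RPKM (1.83 ± 0.07, adjusted p = 7.44e-08), and E13.5 Ctrl stood at 41.5. The members near these 3 were not recurrent, and each of the 3 was lower in Liver Ctrl than in E13.5 Ctrl.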

How the data were processed

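Open chromatin (ATAC-seq), H3K4me1 and RNA were measured in sorted endothelial cells. Per the submitters' processing notes, the authors used Trim Galore 0.6.4, Bowtie2 2.3.5.1 and MACS2 2.1.4 for peaks, and STAR 2.7.3a, Subread 2.0.0 with featureCounts, and edgeR for RNA, on mm10 or GRCm38. Settings are not given in the sources used here, nor is any shift of reads for the transposase. Each deposited peak list joins 2 libraries and gives a display score, a fold ratio over local background, and −log10 q. The deposited RNA values are RPKM. Whole reads were recovered from them for 100% of 20720 genes above 0, to a tolerance of 0.001 reads.

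Overlaps of at least 1 base were counted with bedtools 2.31.1. RNA was tested with limma 3.58.1 in R 4.3.3 on log2(RPKM + 1), over the 12546 genes that reached an RPKM of 1 in 2 or more of 13 libraries, with 1 mean per group, a two-sided moderated test and Benjamini-Hochberg adjustment, called at 0.05. E13.5 Ctrl has 1 RNA library and was assumed to vary like the others. The test was checked on simulated data. The planned link to the nearest gene start within 100 kb was replaced by the nearest gene body, because many genes lack a strand. Genes named are those with the most members, list genes, the 10 strongest peaks, the largest differences at starts and with Runx1, the largest clusters, and Runx1. Genes with 3 or more recurrent members were added after seeing the data. Members, lists and tests were chosen with earlier results of these data known.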

Additional observations from a re-analysis of the deposited data

How the results depend on the processing

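Requiring a −log10 q of at least 5 left 1667 adult-only peaks, of which 68.3% were recurrent and 3.36% lay within 1 kb of a gene start. When only an overlap of at least 50% of the liver peak excluded it, the shares were 28.6% and 2.86%, and when the embryonic Runx1 lists excluded peaks too they were 22.4% and 2.05%. Excluding peaks within 500 bases of an embryonic control peak gave 1.75% within 1 kb of a start. The share of linked genes called higher in Liver Ctrl than in E13.5 Ctrl was 41.3% with no filter on low values (27.03% of all genes), 43.5% with the read total alone (27.4% of all genes), 59.7% with recurrent peaks only and 59.1% with peaks above the median score. Against E9.5 Ctrl it was 44.9% with no filter (30.3% of all genes), 56.0% with quantile normalization (39.7%), 50.6% with the read total alone (34.4%) and 61.8% with recurrent peaks only. For Liver 2Runx1 it was 8.86% with no filter (9.51% of all genes) and 11.1% with quantile normalization (13.1%), and leaving out 1 library gave 8.91% to 10.0% (11.4% to 12.9% of all genes), with 1978 to 2185 genes called over all genes. With the read total alone the difference from E13.5 Ctrl turned to -0.345 for Magi1 and -0.32 for Smad3, and that from E9.5 Ctrl to -0.16 for Fabp5 and -0.020 for Klhl2. The cause was not tested, except that no filter adds low genes to those tested. Scaling by the read total, limma-voom on recovered reads and linking by the nearest gene start were chosen after seeing the data. Of values for single genes under all alternatives, 3303 kept direction and side of the threshold, 129 lost the call and 33 gained it.

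With the replicate number as a block, 5051 genes were called higher and 4795 lower in Liver Ctrl than in E13.5 Ctrl, 5348 and 5351 against E9.5 Ctrl, and 2125 and 971 in Liver 2Runx1 against Liver Ctrl. Deviations of same-numbered libraries correlated by -0.06 to 0.11 between groups, with the highest value between the 2 liver groups. These values do not settle whether same-numbered libraries share more than a number. The depth of the ATAC libraries is unknown and limits what absence from a list can show.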
